A study of Mus musculus with 24 samples.

Results

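The oligodendrocyte lineage and myelin genes examined here were 33 genes, chosen by symbol from a list of precursor, differentiation and myelin genes, out of 50686 genes with counts. RNA was sequenced from tissue labelled back left brain of C57BL/6 mice. The mice were Pank1-/- Syn-Pank2-/- double knockouts (dKO) or wild type (WT), of both sexes, at day 10 or day 20. The groups were dKO at day 20 (6 libraries), WT at day 20 (6), dKO at day 10 (6) and WT at day 10 (6), each with 3 female and 3 male libraries. Pank1 and Pank2 encode pantothenate kinases of coenzyme A synthesis; what Syn stands for, and which cells lack Pank2, are not stated in the labels. No allele is listed for the WT mice. The labels do not say that the libraries came from separate animals, so p-values measure only the spread between these samples.

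Oligodendrocytes arise from dividing precursors, pass through a brief newly formed stage and then wrap axons in myelin. Myelin is made of stacked membrane held together by a small set of abundant proteins, and it is rich in galactolipids. Galactosylceramide is made from ceramide and UDP-galactose by the product of Ugt8a, and Gal3st1 adds sulfate to give sulfatide. Fa2h hydroxylates the fatty acids that many of these lipids carry. In the mouse hindbrain and cerebellum myelin forms over the early postnatal weeks, and the level of its transcripts rises as cells mature.

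Of the 24 libraries, 23 held at least 1 M gene counts (M, 1000000 counts) and were used, with 9.19 to 44.7 M each, so that 1 count stood for 0.0224 to 0.109 CPM before TMM scaling. CPM, used throughout for levels, are counts per 1000000 gene counts of the library, with its total scaled by TMM normalization. The remaining one, dKO male replicate 3 of day 10, had 45964 gene counts and was left out, which leaves 5 dKO libraries at day 10. The labels carry no replicate numbers, and those used here only name the libraries of a group in the order of their accessions. The targeted genes were checked over whole genes, so the deleted part was not tested. At day 20 Pank1 was at 6.71 to 8.12 CPM in dKO and 19.5 to 26.7 CPM in WT libraries. Pank2 was at 38.5 to 46.3 CPM in dKO and 52.6 to 61.3 CPM in WT libraries at that day. At day 10 Pank1 was at 7.17 to 8.87 CPM in dKO and 20.99 to 24.7 CPM in WT libraries, and Pank2, whose ranges overlapped, was at 44.6 to 52.1 CPM in dKO and 46.3 to 56.3 CPM in WT libraries. Xist and 4 Y-linked genes matched the labelled sex in all 23 libraries.

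Regional marker genes set 3 day 10 libraries apart from the rest. The summed level of 8 hindbrain Hox genes was 92.5 CPM in dKO female replicate 2, 0.112 CPM in dKO male replicate 2 and 2.12 CPM in WT male replicate 1. The other day 10 libraries were between 14.5 and 49.1 CPM, and the 12 day 20 libraries were at 23.04 to 31.9 CPM in dKO and 20.9 to 35.2 CPM in WT. In the same order, the sum of 8 cerebellar markers in these 3 libraries was 1118, 466 and 3037 CPM. The part of this spread in the day 10 results was not tested, and the counts of genes at day 10 are given with and without these libraries. Leaving out these 3, or either dKO male library used, leaves 1 dKO male library at day 10. Female and male means weigh equally, so that library then stands for all dKO males.

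The promoters of 4 members are shown because the results turn on these genes: the galactolipid genes Ugt8a and Gal3st1, the late gene Ermn and the structural gene Mog. Each runs from 250 bases before to 50 bases after the RefSeq start on GRCm38.p6, written in the direction of transcription. Capitals mark matches to ACAATG and to CTGGNAC (either strand).
Ugt8a: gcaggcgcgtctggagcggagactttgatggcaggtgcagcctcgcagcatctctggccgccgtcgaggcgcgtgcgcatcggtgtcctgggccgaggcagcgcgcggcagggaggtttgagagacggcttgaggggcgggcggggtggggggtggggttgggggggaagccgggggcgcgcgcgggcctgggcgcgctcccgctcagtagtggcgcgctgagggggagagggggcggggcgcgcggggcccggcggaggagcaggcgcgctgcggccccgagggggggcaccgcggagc
Gal3st1: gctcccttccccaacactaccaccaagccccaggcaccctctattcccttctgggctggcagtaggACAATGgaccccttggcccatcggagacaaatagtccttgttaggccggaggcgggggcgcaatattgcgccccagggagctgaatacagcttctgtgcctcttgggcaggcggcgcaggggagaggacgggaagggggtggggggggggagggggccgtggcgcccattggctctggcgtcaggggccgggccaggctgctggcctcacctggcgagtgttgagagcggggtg
Ermn: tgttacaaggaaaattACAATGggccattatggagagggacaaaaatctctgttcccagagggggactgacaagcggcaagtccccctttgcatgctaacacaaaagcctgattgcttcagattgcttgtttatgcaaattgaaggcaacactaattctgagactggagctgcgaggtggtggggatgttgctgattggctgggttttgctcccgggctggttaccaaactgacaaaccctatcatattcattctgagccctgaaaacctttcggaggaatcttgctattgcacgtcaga
Mog: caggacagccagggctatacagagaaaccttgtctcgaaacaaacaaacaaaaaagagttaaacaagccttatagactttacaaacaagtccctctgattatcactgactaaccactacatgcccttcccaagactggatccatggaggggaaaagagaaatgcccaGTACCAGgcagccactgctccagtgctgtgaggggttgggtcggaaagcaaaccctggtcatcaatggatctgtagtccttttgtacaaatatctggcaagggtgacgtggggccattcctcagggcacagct
Their coordinates are chr3:125938603-125938902 on the minus strand, chr11:3983386-3983685 on the plus strand, chr2:58052815-58053114 on the minus strand and chr17:37023349-37023648 on the minus strand. Of the 33 members, 24 had a promoter in the RefSeq table. ACAAAG and ACAATG, the core letters bound by Sox proteins, occurred on either strand in 5 and 6 of the 24, against 18.7% and 12.6% of all 32851 promoters of that length. CTGGNAC, the core of the motif bound by Myrf, occurred in 7 of the 24 and 19.3% of all. CAGCTG, an E-box, occurred in 3 of the 24 and 16.3% of all. Among the 4 promoters shown, ACAATG was present in Gal3st1 and Ermn, CTGGNAC was present in Mog, and the Ugt8a window held none of the 4 motifs.

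In WT tissue at day 20 the members spanned a wide range of levels per kb of annotated exon. The length was that of all exons of a gene together, not that of a single transcript. Mbp was the most abundant, at 697 ± 59.7 CPM per kb (SD, n = 6), followed by Mobp at 310.3 ± 39.9, Mal at 284 ± 41.8, Cnp at 247 ± 30.4 and Cldn11 at 232 ± 25.7 CPM per kb. From Mobp to Cldn11, neighbours in this order differed by less than the larger of their SDs, whereas Mobp and Cnp differed by more than the SD of either. Ugt8a was at 111 ± 15.3 CPM per kb, close to Tspan2 at 114 ± 12.96, whereas Fa2h was at 31.4 ± 3.46 and Gal3st1 at 15.4 ± 1.30 CPM per kb. The precursor genes Pdgfra and Cspg4 came last, at 6.21 ± 0.485 and 3.13 ± 0.190 CPM per kb. All 33 members passed the filter on low counts. Fewer oligodendrocytes and less RNA per oligodendrocyte cannot be told apart in these bulk samples.

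In the fit of all 23 libraries, the galactolipid genes Ugt8a and Gal3st1 fell in dKO at day 20. Of the myelin protein genes Cnp alone was called in that fit. When only the day 20 groups were fitted, Mbp, Mobp, Mog, Mag and Opalin were called lower as well. Across all members 14 fell and 1 rose in dKO, while 19.5% of 21657 genes tested fell and 19.4% rose (edgeR quasi-likelihood test, Benjamini-Hochberg over all genes, adjusted p under 0.05). Among the 3 galactolipid genes 2 fell, and the median log2 change was -0.73. Among the 9 structural genes 1 fell, with a median of -0.27. The median over all genes tested was near 0.

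Ugt8a (ENSMUSG00000032854, chromosome 3, 125865271 to 125938619, minus strand) was at 132, 206 and 293 CPM (lowest, median, highest, as in the sentences that follow) in dKO libraries at day 20 and at 429, 508 and 614 CPM in WT libraries. Every dKO library was below every WT library, and the log2 change was -1.26 ± 0.17 (SE; adjusted p = 1.76e-05), a ratio of 0.419 (0.334 to 0.525) (95% interval in brackets). The sulfotransferase gene Gal3st1 (ENSMUSG00000049721, chromosome 11, 3983636 to 3999326, plus strand) was at 15.3, 19.4 and 22.1 CPM in dKO and 28.8, 31.1 and 35.8 CPM in WT libraries, again without overlap. Its log2 change was -0.73 ± 0.11 (adjusted p = 2.77e-05), a ratio of 0.602 (0.518 to 0.699). Fa2h (ENSMUSG00000033579, chromosome 8, 111345135 to 111393824, minus strand), the fatty acid hydroxylase gene, was at 65.02, 74.1 and 94.1 CPM in dKO and 82.6, 91.2 and 113 CPM in WT libraries. These groups overlapped, and its log2 change of -0.30 ± 0.13 did not pass (adjusted p = 0.0864). Ugt8a and Gal3st1 were called in all 33 alternative analyses.

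**Figure D1:**
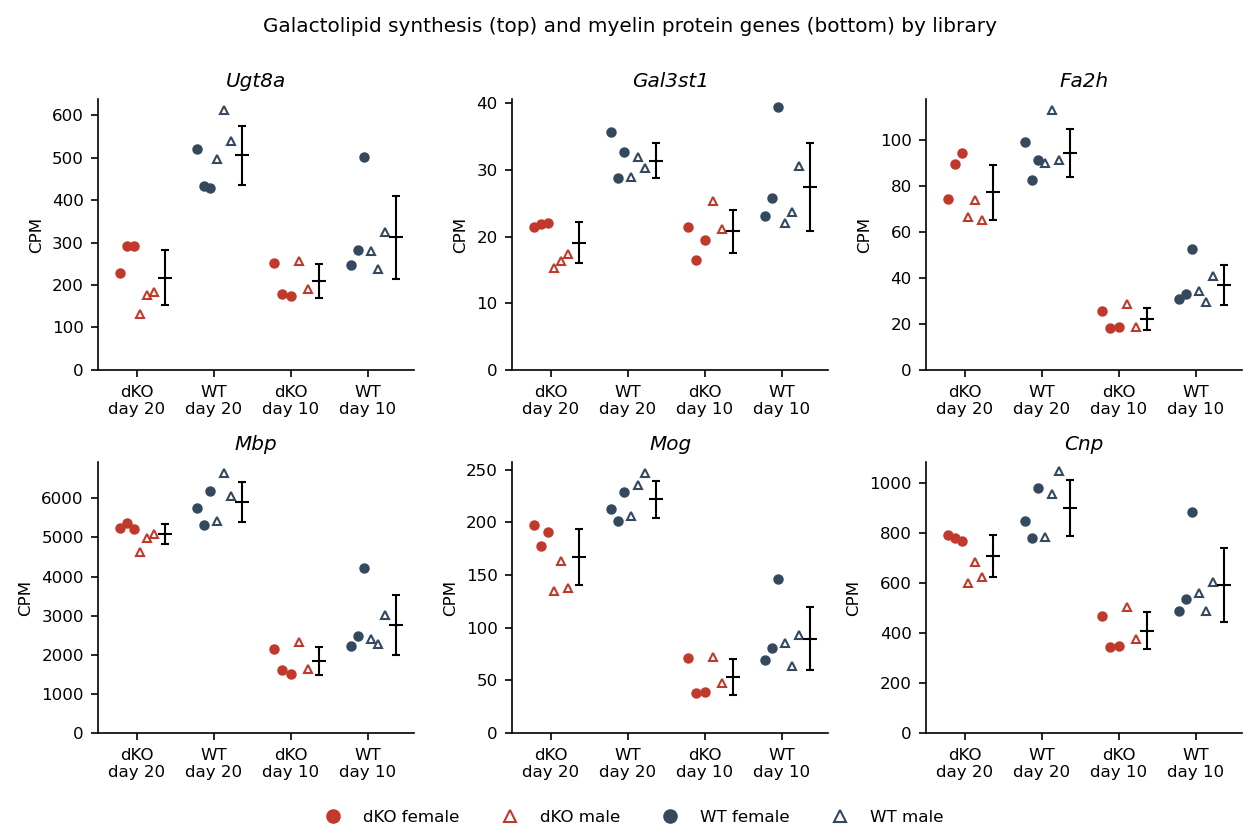
CPM of the galactolipid genes Ugt8a, Gal3st1 and Fa2h (top) and the myelin protein genes Mbp, Mog and Cnp (bottom) in each library, by genotype and day; bars give the mean ± SD of the group beside them. Every dKO library at day 20 is below every WT library for Ugt8a, Gal3st1 and Mog, and 1 WT female library stands above its group at day 10.

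Of the compact myelin proteins, Mbp (ENSMUSG00000041607, chromosome 18, 82475146 to 82585637, plus strand), which holds the cytoplasmic faces of the membrane together, was at 4619, 5149 and 5381 CPM in dKO and 5323, 5916 and 6661 CPM in WT libraries at day 20. Its log2 change was -0.22 ± 0.14 and was not called (adjusted p = 0.24). Mobp (ENSMUSG00000032517, chromosome 9, 120149707 to 120181484, plus strand), a further compact myelin protein, was at 1423, 1685 and 2043 CPM in dKO and 1766, 2089 and 2523 CPM in WT libraries (log2 -0.33 ± 0.16, adjusted p = 0.111). These ranges overlapped, as did those of Mal and Cldn11. Mal (ENSMUSG00000027375, chromosome 2, 127633226 to 127656695, minus strand), a proteolipid of lipid-rich membrane, was at 642, 746 and 873 CPM in dKO and 653, 778 and 961 CPM in WT libraries (log2 -0.09 ± 0.22). It lies 3.61 Mb from Pank2 on chromosome 2, where Bcas1 lies 39.05 Mb and Ermn 73.2 Mb from Pank2. On chromosome 19, Opalin lies 6.18 Mb and Myrf 24.6 Mb from Pank1. Cldn11 (ENSMUSG00000037625, chromosome 3, 31149920 to 31164324, plus strand), which forms the tight junctions of myelin, was at 317, 389 and 463 CPM in dKO and 380.1, 428 and 499 CPM in WT libraries (log2 -0.15 ± 0.15). Neither was called, with adjusted p = 0.793 and 0.47.

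Cnp (ENSMUSG00000006782, chromosome 11, 100574904 to 100591729, plus strand), an enzyme of the uncompacted channels of myelin, was the only structural gene called at day 20 in the fit of all 23 libraries. It was at 599, 727 and 793 CPM in dKO and 781, 904 and 1047 CPM in WT libraries, with 5 of 6 dKO libraries below every WT library, and a log2 change of -0.35 ± 0.13 (adjusted p = 0.0428). This call was lost when 1 of 10 libraries was left out (adjusted p = 0.0533 to 0.1), which were dKO female day 20 replicates 1, 2 and 3, dKO male day 20 replicates 1 and 3, WT female day 20 replicates 1 and 3, WT male day 20 replicates 2 and 3 and WT male day 10 replicate 1. Mog (ENSMUSG00000076439, chromosome 17, 37010743 to 37023398, minus strand), of the outermost myelin layer, was at 135, 170.2 and 198 CPM in dKO and 202, 220.4 and 246 CPM in WT libraries. These did not overlap, but its log2 change of -0.42 ± 0.18 was not called (adjusted p = 0.0806). Mag (ENSMUSG00000036634, chromosome 7, 30899176 to 30914873, minus strand), the adhesion protein of the innermost layer, was at 429, 506 and 555 CPM in dKO and 533, 616 and 677 CPM in WT libraries (log2 -0.27 ± 0.15, adjusted p = 0.17). Opalin (ENSMUSG00000050121, chromosome 19, 41061710 to 41077113, minus strand), a sialylated membrane glycoprotein, was at 21.7, 26.01 and 32.6 CPM in dKO and 26.4, 29.5 and 40.6 CPM in WT libraries (log2 -0.28 ± 0.20, adjusted p = 0.298). Tspan2 (ENSMUSG00000027858, chromosome 3, 102734529 to 102801513, plus strand), a tetraspanin, was at 563, 596 and 659 CPM in dKO and 492, 510.5 and 639 CPM in WT libraries. It was the only structural gene with a positive log2 change, 0.15 ± 0.13 (adjusted p = 0.41).

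The difference between the roles was then described within each library, as the mean log2 CPM of the 3 galactolipid genes minus that of the 9 structural genes. At day 20 it was -3.09, -3.01 and -2.65 in dKO and -2.57, -2.33 and -2.17 in WT libraries, so that no dKO library reached the WT range. At day 10 it was -1.86, -1.72 and -1.61 in dKO and -1.98, -1.79 and -1.72 in WT libraries, which overlapped. Counted per 100 CPM of Mbp, Ugt8a stood at 2.86, 3.99 and 5.62 CPM in dKO and 6.93, 8.96 and 9.21 CPM in WT libraries at day 20. At day 10 the same ratio was 11.02, 11.4 and 11.8 CPM in dKO and 10.4, 11.2 and 11.9 CPM in WT libraries. Gal3st1 was -4.91, -4.76 and -4.59 log2 units from the structural mean in dKO and -4.49, -4.25 and -3.95 in WT libraries at day 20. For Fa2h the same measure was -2.95, -2.73 and -2.50 in dKO and -2.89, -2.61 and -2.48 in WT libraries, which overlapped.

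**Figure D2:**
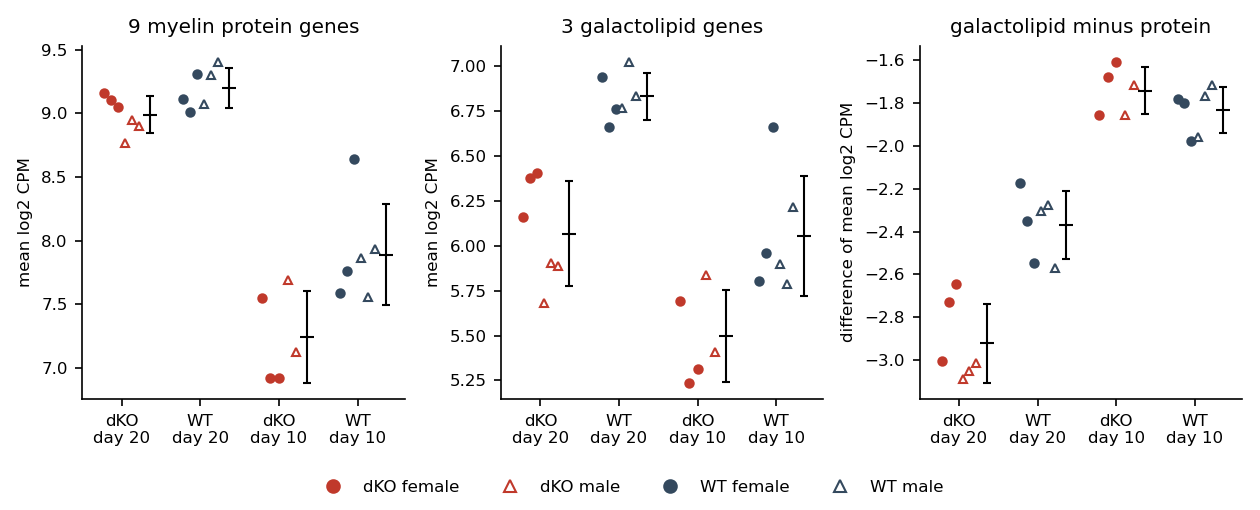
Mean log2 CPM of the 9 myelin protein genes (left) and the 3 galactolipid genes (middle), and their difference (right), in each library by genotype and day; bars give the mean ± SD. In the right panel the dKO day 20 libraries lie between -3.09 and -2.65 and the WT day 20 libraries between -2.57 and -2.17.

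The 3 genes of newly formed oligodendrocytes all fell at day 20. Gpr17 (ENSMUSG00000052229, chromosome 18, 31942997 to 31949636, minus strand), a receptor present for a short window before myelination, was at 50.1, 81.6 and 124 CPM in dKO and 168, 181 and 197 CPM in WT libraries. Its log2 change was -1.09 ± 0.10 (adjusted p = 1.1e-07), a ratio of 0.471 (0.411 to 0.539), with no overlap. Enpp6 (ENSMUSG00000038173, chromosome 8, 46986887 to 47096762, plus strand), a choline phosphodiesterase, was at 33.05, 41.3 and 45.3 CPM in dKO and 63.8, 68.02 and 75.5 CPM in WT libraries (log2 -0.77 ± 0.09, adjusted p = 2.3e-06). Bcas1, which marks cells that have just begun to make myelin, changed by -0.45 ± 0.08 on the log2 scale (adjusted p = 0.000152). For Enpp6 and Bcas1 too, no dKO library reached the WT range.

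Of the 2 precursor genes 1 rose. Pdgfra, the receptor for platelet-derived growth factor, rose by 0.34 ± 0.11 on the log2 scale (adjusted p = 0.0265), with 67.4, 79.1 and 87.4 CPM in dKO and 57.3, 61.8 and 68.8 CPM in WT libraries. The call was lost when dKO female replicate 1, dKO male replicate 2, WT female replicate 1, WT female replicate 2 or WT male replicate 1 of day 20 was left out (adjusted p = 0.0536 to 0.0636). Cspg4, which encodes the NG2 proteoglycan, changed by 0.21 ± 0.08 and was not called (adjusted p = 0.0566). Pdgfra and Cspg4 are also used by cells along blood vessels. None of the 5 transcription factors was called at day 20: Olig1 and Olig2, which specify the lineage, Sox10 and Nkx6-2, and Myrf, which switches on myelin genes. Their log2 changes ran from -0.22 for Olig2 to 0.21 for Myrf (adjusted p = 0.0583 for Myrf). Myrf was the 1 factor at an unadjusted p under 0.05, DESeq2 called 0 of the 5 and limma-voom called Myrf. Myrf was at 126, 130.3 and 141 CPM in dKO and 104, 113 and 134 CPM in WT libraries, which overlapped.

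Of the 2 gap junction genes, Gjb1 (ENSMUSG00000047797, chromosome X, 101376378 to 101385629, plus strand), which encodes connexin 32, was at 9.42, 12.2 and 16.7 CPM in dKO and 18.8, 24.1 and 32.96 CPM in WT libraries. It fell without overlap, at a ratio of 0.501 (0.399 to 0.630) (adjusted p = 0.000126). Gjc3, the mouse connexin 29 gene, had a log2 change of -0.05 ± 0.09 (adjusted p = 0.727). Among the 9 other mature genes 7 fell. Cryab (ENSMUSG00000032060, chromosome 9, 50751325 to 50756636, plus strand), a small heat shock protein, was at 10.8, 19.2 and 21.5 CPM in dKO and 44.5, 52.8 and 73.7 CPM in WT libraries (log2 -1.62 ± 0.22, adjusted p = 2.4e-05). Ermn (ENSMUSG00000026830, chromosome 2, 58045113 to 58052864, minus strand), a cytoskeletal protein of mature oligodendrocytes, was at 35.5, 56.5 and 104 CPM in dKO and 152, 180.4 and 219 CPM in WT libraries (log2 -1.59 ± 0.22, adjusted p = 3.45e-05). Car2 (ENSMUSG00000027562, chromosome 3, 14886273 to 14900770, plus strand), a carbonic anhydrase, was at 51.2, 59.8 and 81.6 CPM in dKO and 111, 141 and 185 CPM in WT libraries (log2 -1.18 ± 0.11, adjusted p = 1.38e-07). In none of these 3 did a dKO library reach the WT range. Tmem88b, Plekhh1, Tubb4a (a beta tubulin) and Aspa, which breaks down N-acetylaspartate, fell by 0.28 to 0.49 on the log2 scale, with medians of 70.8, 113, 387 and 41.3 CPM in dKO and, in the same order, 100.5, 143, 470.4 and 53.1 CPM in WT libraries. The Aspa call was lost when 1 of 13 libraries was left out, which were dKO female day 20 replicates 2 and 3, dKO male day 20 replicates 1, 2 and 3, dKO male day 10 replicate 2, WT female day 20 replicates 1, 2 and 3, WT male day 20 replicates 1, 2 and 3 and WT male day 10 replicate 3. Hapln2, a link protein at nodes of Ranvier, was at 48.8, 52.1 and 64.2 CPM in dKO and 40.1, 41.01 and 59.5 CPM in WT libraries (log2 0.33 ± 0.17, adjusted p = 0.144). Ppp1r14a, a phosphatase inhibitor, had a log2 change of -0.05.

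By library, 12 members had every dKO value below every WT value at day 20, where 10.3% of all genes did: Ugt8a, Gal3st1, Mog, the 3 newly formed genes, Gjb1, Cryab, Ermn, Car2, Plekhh1 and Tubb4a. In 0 members, and 9.79% of all genes, every dKO value was above every WT value. Of the 14 falls, 12 were called in all 33 alternatives, and Cnp and Aspa were not. The count of falls was 20 when only the groups compared were fitted. That fit added Fa2h and the structural genes Mbp, Mobp, Mog, Mag and Opalin to the falls, and Cspg4, Hapln2 and Myrf to the rises. Without the 3 regionally apart day 10 libraries, 12 falls and 3 rises were called.

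**Figure D3:**
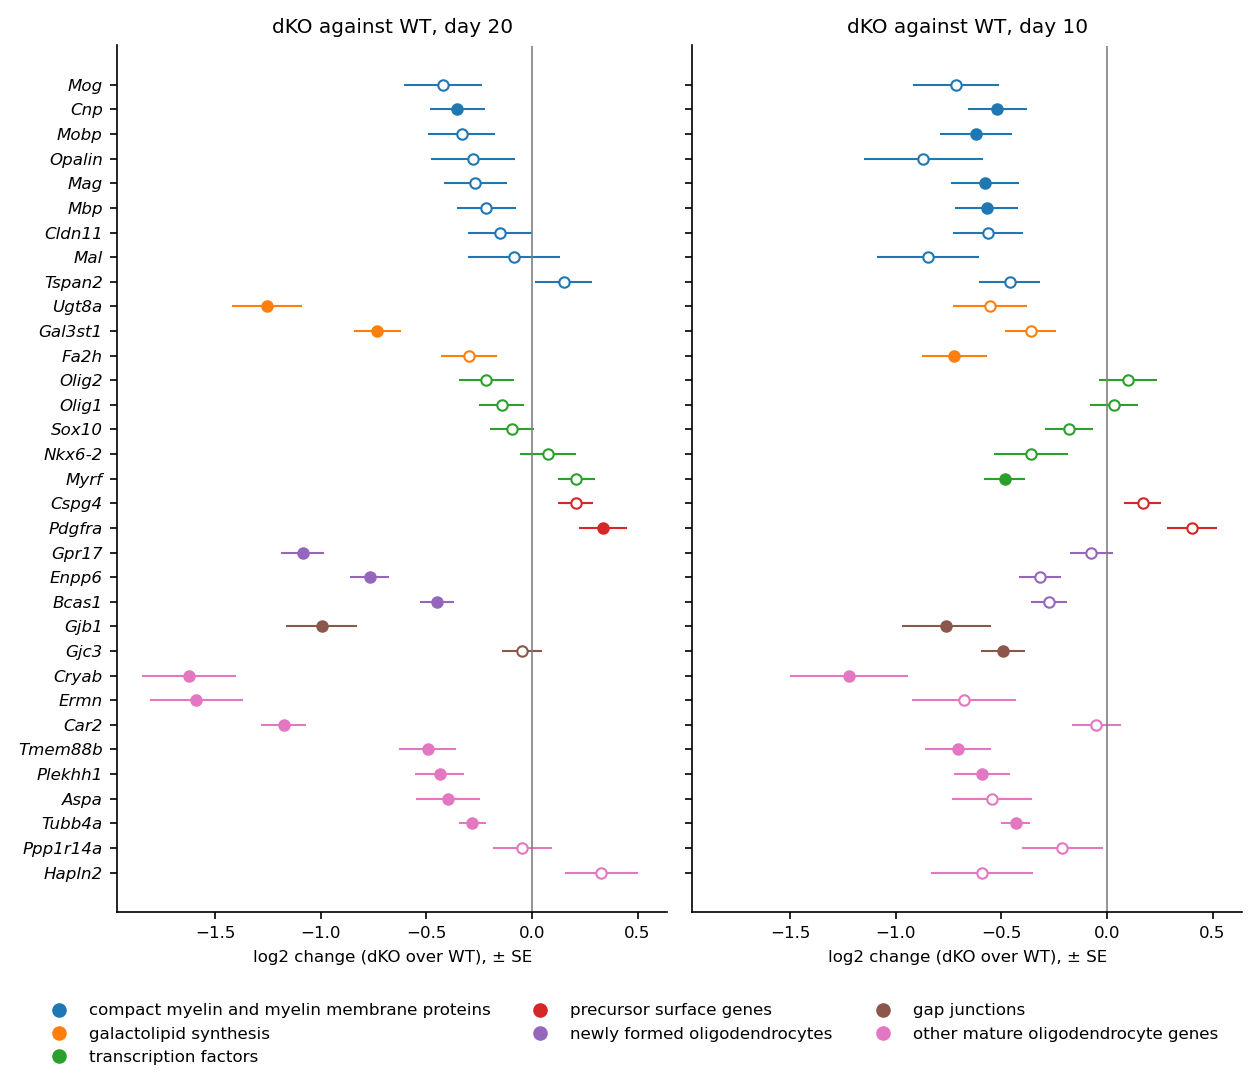
Log2 change of each member in dKO over WT at day 20 (left) and day 10 (right), ± SE, coloured by role; filled points were called at an adjusted p under 0.05 and open points were not. The galactolipid genes Ugt8a and Gal3st1 lie at -1.26 and -0.73 at day 20, where the structural genes lie between -0.42 and 0.15.

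**Figure D4:**
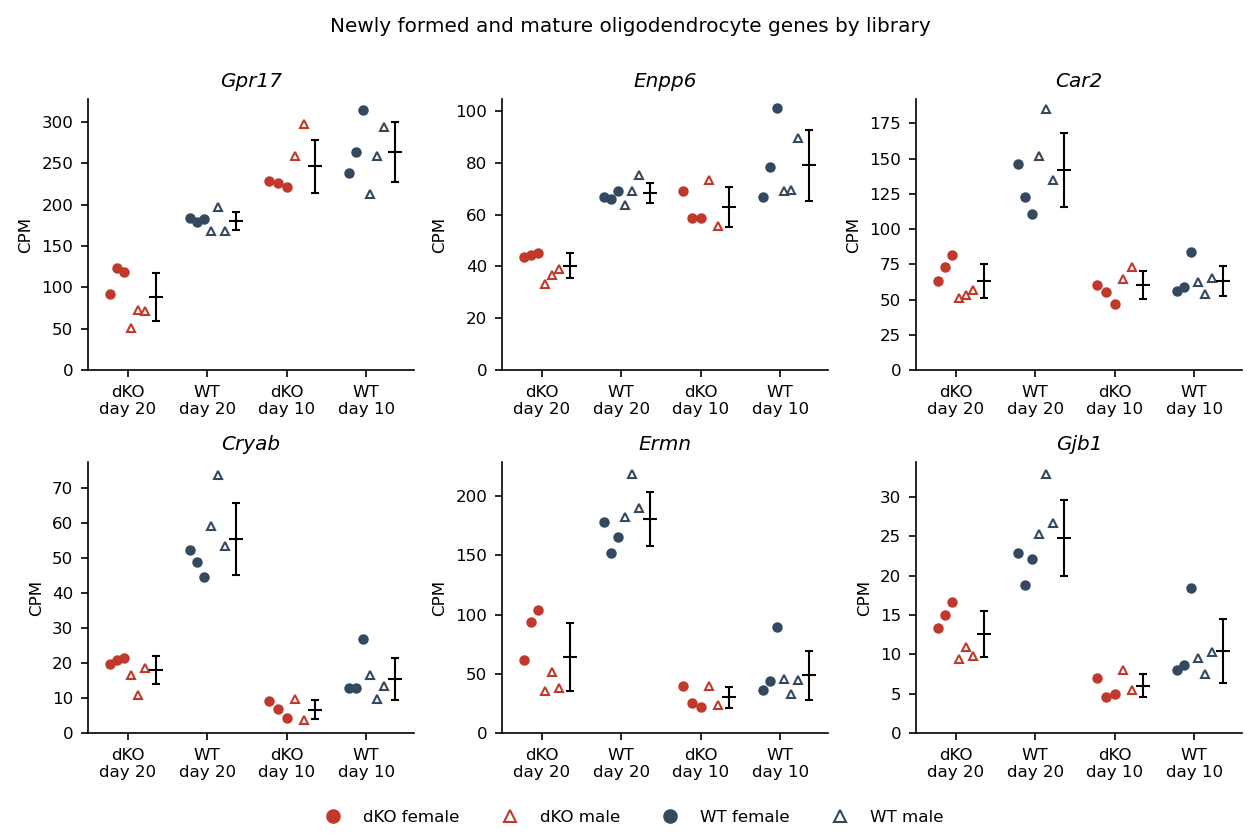
CPM of Gpr17, Enpp6, Car2, Cryab, Ermn and Gjb1 in each library, by genotype and day; bars give the mean ± SD. At day 20 every dKO library is below every WT library for all 6 genes.

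Other genes of the lineage, taken from a list that does not overlap the members, gave 1 rise and 16 falls among 36 tested at day 20. Of all genes tested, 19.4% rose and 19.5% fell. Of its 20 mature genes 13 fell and 1 rose, and the 4 with the smallest p were Qdpr (log2 -0.66 ± 0.06), Evi2a (-0.82 ± 0.11), Prr5l (-0.95 ± 0.14) and Trf, which encodes the iron carrier transferrin (-1.20 ± 0.19). Of the 8 differentiating genes tested, 2 fell, the transcription factor gene Nkx2-2 (-0.49 ± 0.11) and Bmp4 (-0.53 ± 0.13), which encodes a secreted growth factor. Of the 8 precursor genes, 1 fell, the transcription factor gene Sox6 (-0.51 ± 0.10). In galactolipid metabolism outside the members, 4 of 26 genes rose and 5 fell, which is near the shares of all genes. Of 10 tested genes of ceramide supply, Cers6 (log2 -0.56 ± 0.07), a ceramide synthase, and Sptlc2 (-0.48 ± 0.07), a subunit of serine palmitoyltransferase, fell with 1 other, and Kdsr (0.42 ± 0.06) and Cers5 (0.23 ± 0.04) rose. Of 6 genes of sugar and sulfate donors 2 fell, Ugp2 (-0.44 ± 0.05), which makes UDP-glucose, and the UDP-galactose transporter gene Slc35a2 (-0.32 ± 0.08). Among 6 genes of breakdown, Galc (log2 0.27 ± 0.06), the galactosylceramidase, and Psap (0.15 ± 0.05) rose and 0 fell. Of 4 genes that use ceramide otherwise edgeR called 0, with 1 at an unadjusted p under 0.05.

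Some markers of other cells were also called at day 20, where 19.4% of all genes rose and 19.5% fell. The falls among neuronal and forebrain markers were near that share. The part of these markers in the members' changes was not tested. Of 8 microglial markers 6 fell, with a summed level of 101 to 151 CPM in dKO and 161 to 192 CPM in WT libraries. Of 8 endothelial markers 6 fell, with sums of 222 to 271 CPM in dKO and 288 to 302 CPM in WT. Of 8 choroid plexus markers 4 fell, with sums of 231 to 529 CPM in dKO and 524 to 679 CPM in WT; the choroid plexus also makes Car2 and Trf. Of 8 astrocyte markers 2 rose and 2 fell, and their sums were 4649 to 5289 CPM in dKO and 5060.3 to 5371 CPM in WT. Of 10 neuronal markers 2 fell, with sums of 3893 to 4578 CPM in dKO and 4504 to 4763 CPM in WT. Of 7 Schwann cell markers tested 2 rose, and the list of 8 summed to 45.1 to 52.1 CPM in dKO and 30.8 to 40.2 CPM in WT, with Pmp2 at 0 in every library. Of 7 forebrain markers tested 1 fell. The list of 8 summed to 53.9 to 64.01 CPM in dKO and 45.8 to 51.2 CPM in WT, so that every dKO sum was above every WT sum. Of 8 cerebellar and 8 Hox markers edgeR called 0 at day 20, and 0 were at an unadjusted p under 0.05.

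In each sex at day 20, 7 members fell in females, where 5.37% of all genes fell and 5.33% rose, and 15 in males, where 17.5% fell and 17.8% rose. Those of females were Ugt8a, Gal3st1, Gpr17, Enpp6, Car2, Tubb4a and Cryab, and in males Cnp, Fa2h, Bcas1, Gjb1, Aspa, Ermn, Tmem88b and Plekhh1 fell as well. No member was called higher by edgeR in either sex, and DESeq2 called 1 higher in females and 0 in males. The levels of Ugt8a and Gpr17 by sex are listed in the order of replicates 1 to 3. Ugt8a was at 229, 292 and 293 CPM in dKO females and 520.3, 433 and 429 CPM in WT females, with a log2 change of -0.76 ± 0.23 (adjusted p = 0.0445). In males it was at 132, 176 and 184 CPM in dKO and 497, 614 and 539 CPM in WT (-1.75 ± 0.24, adjusted p = 3.1e-05). All dKO males were below all dKO females. Gpr17 was at 91.2, 124 and 118 CPM in dKO females and 184, 179 and 183 CPM in WT females, and at 50.1, 72.1 and 71.00 CPM in dKO males and 168, 197 and 168 CPM in WT males. Its log2 changes were -0.71 ± 0.14 in females and -1.46 ± 0.14 in males. The genotype difference in males minus that in females was called for 0 genes by edgeR at either day, with 6 members and 3284 genes at an unadjusted p under 0.05 at day 20, and 1 member and 2599 genes at day 10. For Ugt8a it was -0.98 ± 0.33 (adjusted p = 0.176) and for Gpr17 -0.75 ± 0.20 (adjusted p = 0.0982) at day 20. DESeq2 called 2 members lower in that test at day 20 and limma-voom 0. When only the 4 groups of day 20 were fitted, 7 were called lower. Of 8 microglial markers, 6 fell in males (median log2 change -0.96) and 1 in females (-0.27), with sums of 101 to 117 CPM in dKO males, 166 to 192 CPM in WT males, 134 to 151 CPM in dKO females and 161 to 163 CPM in WT females. Their part in the members' changes was not tested. The female count was 3 without dKO replicate 1 or WT replicate 1 of day 20 and 4 without dKO replicate 2 or WT replicate 3. At day 10, 3 members fell in females (Myrf, Tmem88b and Tubb4a), where 0.300% of all genes fell and 0.291% rose, and that count ran from 0 to 22 as single libraries were left out. In males edgeR called 0 members, with 0.00462% of all genes lower and 0.00923% higher. There were 6 members and 4230 genes at an unadjusted p under 0.05, and DESeq2 called 0.

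At day 10, 12 members fell in dKO and 0 rose, against 1.91% of all genes falling and 3.88% rising, but the count changed with single libraries. At an unadjusted p under 0.05 there were 25 of 33 members and 5467 of 21657 genes, and DESeq2 called 1 member higher. With the 3 regionally apart libraries left out, 0 members fell and 0 rose, and 10 genes were called in all. The median log2 change of the members was -0.52, and -0.43 without those libraries. In that fit, and in the fit without dKO male replicate 2, dKO male replicate 1 was the only dKO male library of day 10. The calls lost there cannot be told apart from a loss of power. The count of falls was 1 without dKO male replicate 2, 2 without WT male replicate 1, and 3 without dKO female replicate 2 or without dKO female replicate 3. It was 20 without WT female replicate 1, 21 without dKO male replicate 1 and 23 without dKO female replicate 1. DESeq2 gave 22 falls, and fitting only the day 10 groups gave 0 with 6 genes called in all. No member of the 12 was called in every alternative. As each of 23 libraries was left out in turn, Tubb4a lost its call 0 times, Myrf 1 time and Mag and Mobp 18 times. The others of the 12 lost it 2 (Gjc3) to 13 times (Cnp).

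The structural genes called at day 10 were Mbp, Mobp, Mag and Cnp. Here and in the next paragraph, dKO levels are listed by library, female replicates 1 to 3 and then male replicates 1 and 2. WT levels are the lowest, median and highest of 6 libraries. Mbp was at 2137, 1611, 1518, 2325 and 1628 CPM in the 5 dKO libraries and at 2231, 2439 and 4232 CPM in WT libraries, with 4 dKO libraries below all WT libraries (log2 -0.57 ± 0.15, adjusted p = 0.037). Mobp, at 554, 393, 354, 587 and 423 CPM in dKO, was at 554, 655 and 1172 CPM in WT libraries (log2 -0.62 ± 0.17). For Mag the values were 308, 229, 208, 334 and 221 CPM in dKO and 322, 343 and 605 CPM in WT libraries (log2 -0.58 ± 0.16). In each of these genes the highest WT value came from WT female replicate 3, and the groups overlapped. Cnp was at 469, 343, 348, 505 and 377 CPM in dKO and 487, 549 and 883 CPM in WT libraries (log2 -0.52 ± 0.14). The other 5 were not called. Mal was at 121, 70.1, 70.5, 129.6 and 77.9 CPM in dKO and 116, 153 and 328 CPM in WT libraries (log2 -0.85 ± 0.24). Cldn11 was at 155, 107, 116, 169 and 120.5 CPM in dKO and 154, 185 and 321 CPM in WT libraries (log2 -0.56 ± 0.17). These overlapped, as did Mog, Opalin and Tspan2. Mog was at 71.6, 37.6, 39.1, 71.97 and 47.3 CPM in dKO and 63.3, 83.1 and 147 CPM in WT libraries (log2 -0.71 ± 0.20). Opalin was at 5.27, 2.56, 2.78, 7.79 and 4.07 CPM in dKO and 5.47, 6.77 and 15.3 CPM in WT libraries (log2 -0.87 ± 0.28). Tspan2, the last of them, was at 238, 153, 164, 246 and 196 CPM in dKO and 222, 267 and 406 CPM in WT libraries (log2 -0.46 ± 0.15).

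Of the galactolipid genes 1 was called at day 10. Fa2h was at 25.5, 18.1, 18.7, 28.7 and 18.9 CPM in dKO and 29.7, 33.7 and 52.4 CPM in WT libraries, without overlap (log2 -0.72 ± 0.15, adjusted p = 0.0203). Ugt8a was at 252, 179, 173, 256 and 191 CPM in dKO and 238, 282 and 502 CPM in WT libraries (log2 -0.55 ± 0.18, adjusted p = 0.0682). Gal3st1 was at 21.5, 16.5, 19.4, 25.4 and 21.2 CPM in dKO and 22.03, 24.8 and 39.4 CPM in WT libraries (log2 -0.36 ± 0.12, adjusted p = 0.0708). Both overlapped. Cryab was at 9.02, 6.83, 4.36, 9.68 and 3.63 CPM in dKO and 9.80, 13.1 and 26.9 CPM in WT libraries and was called (log2 -1.22 ± 0.28, adjusted p = 0.0268). Myrf, at 47.8, 39.5, 39.6, 48.8 and 41.1 CPM in dKO and 49.5, 58.2 and 74.6 CPM in WT libraries, was called and did not overlap (log2 -0.48 ± 0.10, adjusted p = 0.0154). Gjb1, Gjc3, Tmem88b, Plekhh1 and Tubb4a fell too, by 0.43 to 0.76 on the log2 scale. Gjb1 was at 6.96, 4.61, 4.96, 8.06 and 5.47 CPM in dKO and 7.46, 9.10 and 18.4 CPM in WT libraries. Gpr17, at 229, 226, 221, 259 and 297 CPM in dKO and 213, 261 and 314 CPM in WT libraries, had a log2 change of -0.07 ± 0.10. That gene, Car2, Enpp6 and Ermn overlapped between the genotypes and were not called. Car2 was at 60.5, 55.5, 46.6, 64.6 and 73.04 CPM in dKO and 53.9, 60.5 and 83.5 CPM in WT libraries (log2 -0.05 ± 0.12). For Enpp6 the values were 69.02, 58.7, 58.7, 73.4 and 55.5 CPM in dKO and 66.8, 74.1 and 101 CPM in WT libraries (log2 -0.32 ± 0.10). Ermn, the gene with the second largest fall at day 20, was at 40.00, 25.1, 21.7, 39.5 and 23.9 CPM in dKO and 33.2, 44.4 and 89.96 CPM in WT libraries at day 10 (log2 -0.68 ± 0.25). For 6 members the dKO libraries were all below the WT libraries, where 0.947% of all genes were: Cryab, Fa2h, Myrf, Plekhh1, Tmem88b and Tubb4a. The reverse held for 0 members and 1.04% of all genes. Of the marker lists at day 10, 1 of 10 neuronal markers and 3 of 7 forebrain markers rose, where 3.88% of all genes did. At that day edgeR called 0 of 8 microglial, 8 endothelial, 8 astrocyte, 8 choroid plexus, 8 cerebellar and 8 Hox markers. All 8 cerebellar markers had negative log2 changes, from -1.32 to -0.48 with a median of -0.68, and 5 were at an unadjusted p under 0.05. Their sums had a median of 1656 CPM in dKO (466 to 1984) and 2133 CPM in WT libraries (1278 to 3037). The part of these markers in the members' changes was not tested.

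Whether the genotype difference itself changed between the days was tested as the day 20 log2 change minus the day 10 log2 change. It was called for 9 members, 4 higher and 5 lower, with 13.8% and 14.9% of all genes. The 5 lower were Ugt8a (-0.70 ± 0.24, adjusted p = 0.0367), Gpr17 (-1.01 ± 0.14, adjusted p = 5.43e-05), Enpp6 (-0.45 ± 0.14), Ermn (-0.91 ± 0.33) and Car2 (-1.13 ± 0.16, adjusted p = 5.56e-05). The 4 higher were Myrf (0.70 ± 0.13, adjusted p = 0.000539), Tspan2 (0.61 ± 0.20), Gjc3 (0.44 ± 0.14) and Hapln2 (0.92 ± 0.30). Myrf, Car2 and Gpr17 were called in each of the 32 alternatives that gave a value. Without the 3 regionally apart libraries the counts were 1 higher and 3 lower. The Ugt8a call was lost when 1 of 10 libraries was left out (adjusted p = 0.0558 to 0.0997), which were dKO female day 20 replicate 1, dKO male day 20 replicate 1, dKO female day 10 replicate 1, dKO male day 10 replicate 1, WT female day 20 replicate 1, WT male day 20 replicate 2, WT female day 10 replicates 1 and 2 and WT male day 10 replicates 1 and 2. The Ermn call was lost with 1 of 18 left out (adjusted p = 0.0531 to 0.151), which were dKO female day 20 replicates 1 and 2, dKO male day 20 replicates 1 and 3, dKO female day 10 replicates 1 and 2, dKO male day 10 replicate 1, WT female day 20 replicates 1, 2 and 3, WT male day 20 replicates 1, 2 and 3, WT female day 10 replicates 1 and 2 and WT male day 10 replicates 1, 2 and 3. The Enpp6 call was lost without dKO male day 10 replicate 1, and the Gjc3 call without dKO male day 10 replicate 2. Tspan2 was not called without dKO male day 10 replicate 2 or WT male day 10 replicate 1, nor Hapln2 without any 1 of dKO female day 10 replicates 2 and 3 and dKO male day 10 replicate 2. The count of 5 lower was 2 without dKO male day 10 replicate 1 and was 8 without WT female day 10 replicate 3. It was 3 when 1 of 9 other libraries was left out, which were dKO female day 10 replicate 1, dKO female and dKO male day 20 replicate 1, WT female day 10 replicates 1 and 2, WT male day 10 replicates 1 and 2, WT female day 20 replicate 1 and WT male day 20 replicate 2. The count of 4 higher was 1 without dKO male day 10 replicate 2. Of 8 microglial markers 6 were called lower in the same test (median -0.63), and edgeR called 0 of 8 cerebellar markers (median 0.62), with 0 at an unadjusted p under 0.05. Their part in these results was not tested.

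Most members rose between the days in both genotypes. In dKO, 23 rose and 4 fell from day 10 to day 20, with 30.3% of all genes rising and 31.2% falling. In WT, 27 rose and 3 fell, with 26.1% and 25.3%. Without the 3 regionally apart libraries 22 rose and 4 fell in dKO, and 25 rose and 4 fell in WT. Of 8 cerebellar markers 6 rose between the days in dKO and 1 in WT, and their part in the members' changes was not tested. The 2 comparisons share no library, and the median log2 change of the members was 1.42 in dKO and 1.12 in WT. All 9 structural genes rose in both, by 0.77 to 2.96 on the log2 scale in dKO and by 0.60 to 2.20 in WT. Ugt8a changed by -0.01 ± 0.17 in dKO (adjusted p = 0.966) and 0.69 ± 0.16 in WT (adjusted p = 0.00195). Gal3st1 changed by -0.17 ± 0.12 in dKO and 0.20 ± 0.11 in WT and was called in neither, whereas Fa2h rose in both, by 1.78 ± 0.16 and 1.36 ± 0.14. Car2 changed by 0.03 ± 0.12 in dKO (adjusted p = 0.82) and rose by 1.16 ± 0.11 in WT. Gpr17 fell in both, by 1.57 on the log2 scale in dKO and by 0.55 in WT. Pdgfra and Cspg4 fell in both as well, and Enpp6 fell in dKO (-0.66 ± 0.10) but was not called in WT (-0.21 ± 0.09). By library, 21 members had every day 20 value above every day 10 value in dKO, where 18.8% of all genes did, and 21 in WT, where 15.6% did. In dKO 4 members (Pdgfra, Cspg4, Gpr17 and Enpp6) had every day 20 value below every day 10 value, with 18.9% of all genes, and in WT the first 3 of these did, with 16.3%.

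**Figure D5:**
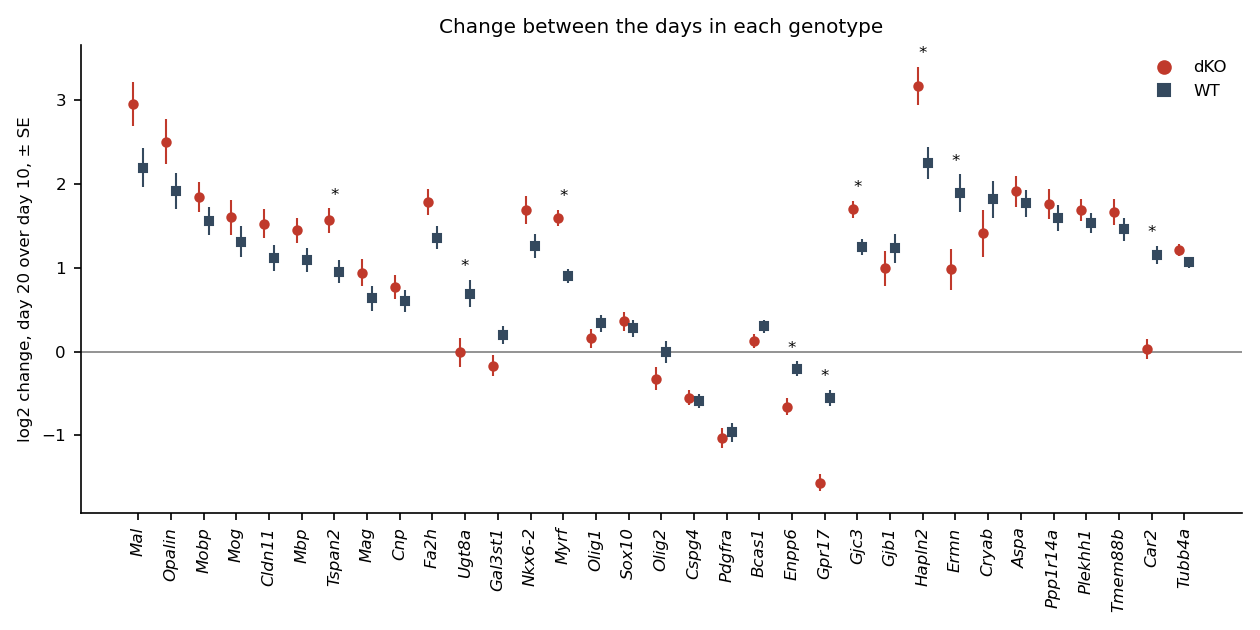
Log2 change of each member at day 20 over day 10, ± SE, in dKO (circles) and WT (squares), grouped by role; asterisks mark members for which the genotype by day test was called. Ugt8a and Car2 lie at -0.01 and 0.03 in dKO and at 0.69 and 1.16 in WT.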

How the data were processed

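Counts of reads per gene were deposited for each library by the authors, as raw counts with unstranded, forward and reverse columns. The submitters' processing notes name STAR 2.5.2b, HTSeq and GRCm38.p5, and the annotation used is not given in the sources used here. The reverse column was used, since forward counts were 5.22 to 7.46% of it, and 4 entries that name no gene were left out (reads with no feature made up 41.7 to 47.5%). Gene symbols were taken from GENCODE M21 (GRCm38), with matches for 50462 of 50686 IDs. Stranded counting separates members from overlapping genes on the opposite strand (Cnp and Dnajc7, for example), but 79 bases of Mobp lie under Gm38642 on the same strand.

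The 23 libraries with at least 1 M gene counts were fitted with edgeR 4.0.16 (quasi-likelihood, robust, TMM, filterByExpr) in R 4.3.3, with 8 group means and 11 contrasts. p-values were adjusted by the Benjamini-Hochberg method over 21657 genes, with a threshold of 0.05, and the code was tested on simulated data. CPM used TMM-scaled library sizes. No 2 libraries held identical counts. Members and lists were chosen with earlier results of these data known. All members were named by role. Levels were given for the structural and galactolipid genes, the 6 others with the smallest day 20 p and, outside this rule, Pdgfra, Myrf and Hapln2. These were the lowest, median and highest of a group, or library by library for dKO at day 10 and for Ugt8a and Gpr17 by sex. For Tmem88b, Plekhh1, Tubb4a and Aspa only day 20 medians were given. Of each other list, up to 4 genes were named by the smallest day 20 p. The alternatives, 31 planned and 2 added after the data were seen, included DESeq2 1.42.0 and limma 3.58.1.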

Additional observations from a re-analysis of the deposited data

Results flagged for a closer look

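In WT female day 10 replicate 3, 16 members stood above the other 5 WT day 10 libraries by more than Dixon's 95% criterion. The values were 1172 CPM for Mobp, 328 CPM for Mal, 321 CPM for Cldn11, 147 CPM for Mog, 605 CPM for Mag, 883 CPM for Cnp, 15.3 CPM for Opalin, 406 CPM for Tspan2, 502 CPM for Ugt8a, 18.4 CPM for Gjb1, 25.7 CPM for Aspa, 16.4 CPM for Hapln2, 89.96 CPM for Ermn, 56.3 CPM for Tmem88b, 9.83 CPM for Ppp1r14a and 76.7 CPM for Plekhh1. The other WT day 10 libraries reached at most 739 CPM for Mobp and 45.6 CPM for Ermn. Without that library 9 members were called lower in dKO at day 10, and their median log2 change was -0.36. In WT male day 20 replicate 2, the highest values were 252 CPM for Bcas1, 59.5 CPM for Hapln2 and 180.2 CPM for Plekhh1. Chance alone flags about 1 in 20 groups; 19 of 132 were flagged here, and the members share their libraries, so the flags are not independent.

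The genotype difference at day 20 minus that at day 10 was called by edgeR for 9 of 33 members (adjusted p under 0.05), 4 higher and 5 lower, and for 13.8% of all genes higher and 14.9% lower, so the members' share is near that of all genes. The Ermn call was lost when 1 of 18 libraries was left out and the Ugt8a call with 1 of 10. On the log2 scale it was 0.92 for Hapln2, 0.70 for Myrf, 0.61 for Tspan2 and 0.44 for Gjc3. It was -0.45 for Enpp6, -0.70 for Ugt8a, -0.91 for Ermn, -1.01 for Gpr17 and -1.13 for Car2.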

How the results depend on the processing

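No paired analysis was possible because the labels carry no replicate numbers; those used here follow the order of accessions within a group. Of the member values under the alternatives, 2917 kept their direction and their side of the threshold, 196 lost a call, 99 gained one and 22 changed sign. Scaling by RLE size factors moved no count of called members by over 1.5 times. Leaving out single libraries gave these counts of members, higher then lower: 0 to 3 and 12 to 17 at day 20, 0 to 2 and 1 to 23 at day 10, 1 to 5 and 2 to 8 for genotype by day. They were 0 to 2 and 3 to 10 in females and 0 to 0 and 11 to 19 in males at day 20, and 0 to 1 and 0 to 22 in females and 0 to 1 and 0 to 2 in males at day 10. For genotype by sex at day 20, 0 to 1 were lower. The day 20 higher count of 1 became 2 with all 24 libraries or a mean of at least 1 CPM, 0 with no filter, 3 with limma-voom or without the 3 regionally apart libraries, and 4 with only the groups compared. The day 10 lower count of 12 became 7 with no filter, 22 with DESeq2, and 0 with only the groups compared or without the 3 libraries; the higher count of 0 became 1 with a mean of at least 1 CPM, DESeq2 or limma-voom. Genotype by day became 1 higher and 3 lower with no filter, and the same without the 3 libraries. In females at day 20 the higher count of 0 became 1 with DESeq2, 2 without the 3 libraries and 4 with only the groups compared, which gave 12 lower. In males it became 2, with 24 lower, with only the groups compared. In females at day 10 the lower count of 3 became 6 with all 24 libraries, 23 with DESeq2, 0 with only the groups compared, and 1 with unstranded counts, limma-voom, the earlier edgeR dispersion estimate or without the 3 libraries. Genotype by sex at day 20 became 2 lower with DESeq2 and 7 with only the groups compared. Changes of sign were all in values that were not called. As single libraries were left out, the log2 values ran as follows: at day 20, Nkx6-2 -0.013 to 0.13 and Ppp1r14a -0.12 to 0.012; at day 10, Olig1 -0.073 to 0.14, Car2 -0.11 to 0.054 and Ppp1r14a -0.44 to 0.023; for genotype by day, Cspg4 -0.046 to 0.14, Cryab -0.65 to 0.044, Pdgfra -0.19 to 0.10, Sox10 -0.010 to 0.16, Aspa -0.054 to 0.33 and Ppp1r14a -0.067 to 0.39. Without the 3 libraries, Olig1 was -0.14, Olig2 -0.076 and Cspg4 -0.045 at day 10, and for genotype by day Pdgfra was 0.26, Aspa -0.054 and Ppp1r14a -0.028. The cause of these changes was not tested. Fitting only the groups compared could not give genotype by day. Depth limits the low genes most, since 1 count stood for up to 0.109 CPM.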
